A study of Homo sapiens with 3 samples.

Results

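Binding of the vitamin D receptor (VDR) was examined around 8 human genes of metabolism and signalling that are described as vitamin D targets: ALOX5, FBP1, G0S2, ASAP2, SLC37A2, LRP5, NINJ1 and CLMN. The loci were chosen by gene name, with earlier results of these data known. For each gene, peaks were taken that shared at least 1 bp with the window of 100 kb to each side of its transcription start site (TSS) on hg19, a position given to 1 kb. The windows held 3 of the 1169 peaks of the unstimulated list and 8 of the 1820 peaks of the calcitriol list. Merging overlapping peaks of both lists left 8 of 2121 bound regions in the windows.

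The study mapped VDR by chromatin immunoprecipitation and sequencing in THP-1 cells, an established line from a human monocytic leukaemia, to see how the ligand changes where the receptor sits. All cells spent the night in medium with charcoal-stripped serum and without phenol red. One VDR sample came from cells then left unstimulated, the other from cells given 10 nM calcitriol, the hormonal form of vitamin D, for 40 min. An IgG sample labelled as pooled was not analysed here. Each condition has 1 library, made from 5 pooled VDR immunoprecipitations, so no difference between conditions has a replicate check and none was tested. The lists give positions only, which cannot check the identity of the cells. Sequencing depth and peak heights are unknown, and a window without a peak says that no peak was called there, not that VDR was absent.

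As a nuclear receptor, VDR contacts DNA together with a retinoid X receptor, usually at direct repeats of a hexamer, and recruits coactivators when its ligand is bound. In monocytes and macrophages it is known for raising antimicrobial and differentiation genes, and it also acts on genes of lipid and sugar metabolism. The genes described here span such roles. ALOX5 encodes the lipoxygenase that starts leukotriene synthesis. FBP1 is a fructose bisphosphatase of gluconeogenesis, and G0S2 inhibits the lipase that opens triglyceride breakdown. SLC37A2 is a sugar-phosphate transporter of the endoplasmic reticulum. LRP5 is a Wnt co-receptor and ASAP2 a GTPase-activating protein for Arf proteins. NINJ1 is a membrane protein of cell adhesion and of membrane rupture in dying cells, and CLMN is a transmembrane protein with calponin homology domains.

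Promoter sequences of the genes are shown for context, since the distances below are from hg19 TSS positions given to 1 kb and not from these RefSeq starts. No hg19 sequence was used here, so the bases under the peaks themselves are not shown. A RefSeq promoter table on GRCh38.p14 matched 5 of the 8 genes, and the 250 bases before the start were read 5′ to 3′ on the gene's strand. Given here are FBP1 (chr9:94639519-94639768, minus strand), G0S2 (chr1:209675162-209675411, plus strand) and NINJ1 (chr9:93134252-93134501, minus strand), which include both patterns of binding found. Capitals mark the GC box GGGCGG and the letters TATAA on either strand, with overlapping matches counted.
FBP1: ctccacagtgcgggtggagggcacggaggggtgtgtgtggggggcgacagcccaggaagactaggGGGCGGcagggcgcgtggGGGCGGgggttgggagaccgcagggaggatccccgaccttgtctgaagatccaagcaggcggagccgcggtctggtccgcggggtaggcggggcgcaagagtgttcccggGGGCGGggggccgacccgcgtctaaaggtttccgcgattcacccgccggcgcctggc
G0S2: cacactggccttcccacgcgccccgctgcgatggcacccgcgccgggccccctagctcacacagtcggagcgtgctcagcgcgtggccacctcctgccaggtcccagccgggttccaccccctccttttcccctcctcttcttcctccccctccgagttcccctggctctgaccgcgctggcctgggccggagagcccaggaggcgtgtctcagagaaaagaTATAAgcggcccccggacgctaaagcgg
NINJ1: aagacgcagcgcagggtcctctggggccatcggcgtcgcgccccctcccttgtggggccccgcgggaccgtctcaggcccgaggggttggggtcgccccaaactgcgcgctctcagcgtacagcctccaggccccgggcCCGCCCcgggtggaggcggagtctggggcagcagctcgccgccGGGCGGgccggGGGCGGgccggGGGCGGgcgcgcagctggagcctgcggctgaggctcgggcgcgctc

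The promoters were rich in G and C, with 72.8% in FBP1, 69.2% in G0S2 and 79.6% in NINJ1, against a median of 58.0% over the 35116 promoters of the table. FBP1 held 3 GC boxes and NINJ1 4. G0S2 held none and was the member with a TATAA, whose first base lay 28 bp before the start. In the other matched genes, ASAP2 held 4 GC boxes and LRP5 3. A GC box occurred in 42.6% and TATAA in 18.9% of all promoters of this length. The hexamers AGGTCA and also AGTTCA, as well as GGGTCA and also GGTTCA, searched on both strands, were in 33.8% of all promoters and in none of these 5. A pair of them in direct repeat with a spacer of 3 (DR3) was in 0.0655% of all and in none of the 5. These matches are descriptions of letters. The RefSeq starts were not placed on hg19, and all positions from here on are those of the deposited lists.

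After calcitriol, 6 of the 8 loci held at least 1 VDR peak: FBP1, G0S2, ASAP2, SLC37A2, NINJ1 and CLMN. In unstimulated cells 2 did, SLC37A2 and NINJ1, and both of these also had peaks after calcitriol. In FBP1, G0S2, ASAP2 and CLMN, 4 loci, peaks were called after calcitriol alone. ALOX5 and LRP5 had none in either list. For scale, the chromosomes were divided into 15056 consecutive tiles of 200 kb, the size of a window. Of these tiles, 7.9% held a calcitriol peak, 4.61% an unstimulated peak, and 9.13% a peak of either list. Peaks of both lists were in 3.38% of tiles, calcitriol peaks alone in 4.52% and unstimulated peaks alone in 1.23%. The tiles include gene-poor DNA and assembly gaps. The genes were picked as vitamin D targets with earlier results of these data known, so the shares are printed side by side without a test.

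Of the 8 regions in the windows, 5 were calcitriol-only (62.5%), 3 were present in both lists (37.5%) and 0 were unstimulated-only. Over all 2121 regions the shares were 52.0% calcitriol-only, 27.4% shared and 20.6% unstimulated-only. The calcitriol-only share over these 8 regions is thus near that of all regions and is not read as a trait of these loci. A difference was not tested. No locus had a peak that was called before calcitriol and missing afterwards. In the whole unstimulated list, 170 rows lie at or after the first break of the position order on their chromosome. None of the 3 peaks in the windows was among them.

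**Figure D1:**
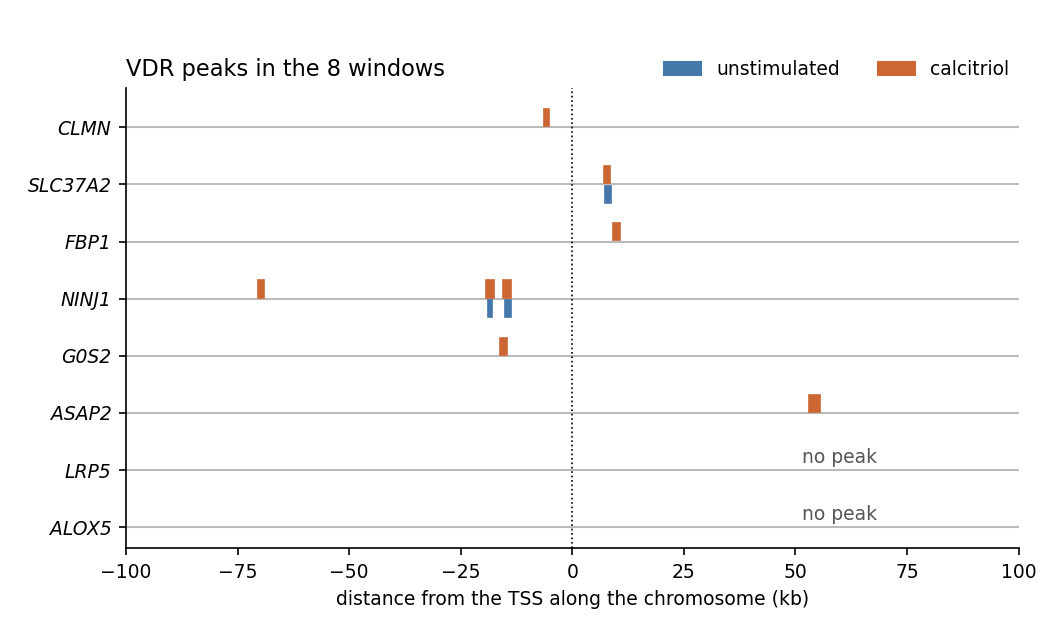
Positions of VDR peaks in the windows, with 1 line per gene and the distance from the TSS along the chromosome in kb (0 is the TSS, negative values are lower coordinates). Bars are peaks drawn to scale, calcitriol above and unstimulated below the line; SLC37A2 and NINJ1 have both, FBP1, G0S2, ASAP2 and CLMN have calcitriol peaks alone, and LRP5 and ALOX5 have none.

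None of the peaks spanned a TSS, and 0 had an edge within 5 kb of one. Of the 8 calcitriol peaks, 6 were centred within 20 kb of the TSS and 2 farther out, in ASAP2 and NINJ1. Relative to the direction of transcription, the peaks lay on the upstream side in 2 loci, FBP1 and G0S2, and on the transcribed side in 4, ASAP2, SLC37A2, NINJ1 and CLMN. The strand is from the RefSeq table for FBP1, G0S2, ASAP2 and NINJ1 and from general knowledge for SLC37A2 and CLMN. The transcribed side is a direction from the TSS and does not place a peak inside the gene. Whether a peak was exonic, intronic or intergenic was not assigned, since no hg19 annotation was used here.

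Among the metabolic genes, FBP1 (chromosome 9, TSS at 97.402 Mb) had 1 calcitriol-only peak at 97411081 to 97412740. It was 1659 bp wide and centred 9.9 kb upstream of the TSS. The nearest unstimulated peak on the same chromosome was 778.7 kb away, at 96622651 to 96623990. The gap from the FBP1 peak to the next bound region was 696.6 kb, and 17.9% of all regions were more isolated. The median gap was 68.6 kb over all regions and 108.1 kb over calcitriol-only regions. In the RefSeq gene order, FBP1 lies between FBP2, its muscle paralogue, and AOPEP.

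G0S2 (chromosome 1, TSS at 209.849 Mb) had 1 calcitriol-only peak at 209832711 to 209834400, 1689 bp wide and centred 15.4 kb upstream. The closest unstimulated peak was 1840.0 kb away. The next bound region of any class was 1486.3 kb away, and 9.3% of all regions were more isolated than this one. G0S2 lies between LAMB3, a laminin chain, and HSD11B1, the enzyme that regenerates active cortisol, and the peak was on the LAMB3 side of the G0S2 start.

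SLC37A2 (chromosome 11, TSS at 124.933 Mb) was bound in both states at 1 site. In unstimulated cells the peak ran from 124940421 to 124941740, 1319 bp wide and centred 8.1 kb from the TSS. After calcitriol it ran from 124940041 to 124941521, 1480 bp wide and centred 7.8 kb from the TSS. The peaks shared 1100 bp, which is 83.4% of the unstimulated and 74.3% of the calcitriol peak, and their centres were 299.5 bp apart. The calcitriol peak began 380 bp before the unstimulated one and ended 219 bp before it, so the called interval was shifted toward the TSS as well as wider. No other bound region lay within 1336.5 kb.

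ALOX5 (chromosome 10, TSS at 45.870 Mb) had no peak in its window. The nearest calcitriol peak, at 43913081 to 43914670, was 1956.1 kb away. The nearest unstimulated peak, at 43902441 to 43904260, was 1966.6 kb away. These neighbours did not overlap each other. On the higher-coordinate side the next calcitriol peak was 5671.0 kb and the next unstimulated peak 19355.8 kb from the TSS. Such distances are common in the genome. A calcitriol peak was as near as that of ALOX5 for 63.0% of all tile centres, and an unstimulated peak for 42.1%. Of all tiles on chromosome 10, 6.81% held a peak.

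In the signalling genes, ASAP2 (chromosome 2, TSS at 9.347 Mb) had 1 calcitriol-only peak at 9400071 to 9402461. Its centre lay 54.3 kb into the transcribed side, farther than the nearest peak of any other bound locus. At 2390 bp it was the widest peak in the windows, and 108 of the 1820 calcitriol peaks were wider. The nearest unstimulated peak was 435.6 kb away, in a region at 9781531 to 9784100 that was present in both lists. That region was also the nearest bound neighbour of the ASAP2 peak, across a gap of 379.1 kb.

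LRP5 (chromosome 11, TSS at 68.080 Mb) had no peak in its window. Both nearest peaks were on the lower-coordinate side, before the LRP5 start. The calcitriol peak at 67803301 to 67805381 was 275.7 kb away, was 2080 bp wide and had no unstimulated counterpart. The unstimulated peak at 67769401 to 67770811 was 309.9 kb away and 1410 bp wide, and it overlapped a calcitriol peak. On the other side an unstimulated peak of 640 bp lay 516.3 kb away, and the first calcitriol peak 984.6 kb away. LRP5 and SLC37A2 are on the same chromosome and differ in having no called site and 1 site in both states.

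NINJ1 (chromosome 9, TSS at 95.897 Mb) was the locus with most peaks, 2 before and 3 after calcitriol, all on the transcribed side. Of the 15056 tiles, 151 (1.0%) held 3 or more regions, and 1375 held a peak of either list at all. The site nearest the TSS was called in both states. Its unstimulated peak ran from 95881921 to 95883200 (1279 bp, centred 14.4 kb from the TSS) and its calcitriol peak from 95881481 to 95883320 (1839 bp, 14.6 kb). A companion site lay farther on, across a gap of 2.0 kb between the region edges, and was also called in both states. It ran from 95878081 to 95879030 (949 bp, 18.4 kb) before and from 95877591 to 95879510 (1919 bp, 18.4 kb) after ligand.

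At both NINJ1 sites the unstimulated peak lay wholly within the calcitriol peak. The calcitriol peak at the 18.4 kb site reached 490 bp beyond the unstimulated one at the lower edge and 480 bp at the higher edge, and the centres were 5.0 bp apart. Only 4 of the 447 pairs of single overlapping peaks in the genome had closer centres. At the 14.6 kb site the gain was uneven, 440 bp at the lower and 120 bp at the higher edge. The third NINJ1 peak, at 95826451 to 95827891, was calcitriol-only, 1440 bp wide and 69.8 kb from the TSS. The gap between its edge and the shared pair was 49.7 kb. In the RefSeq order NINJ1 lies between CARD19 and WNK2, and all 3 sites were on the CARD19 side of its start.

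CLMN (chromosome 14, TSS at 95.786 Mb) had the peak nearest to a TSS of all 8 genes. It was calcitriol-only, at 95779631 to 95780741, and centred 5.8 kb into the transcribed side. It was also the narrowest calcitriol peak in the windows, at 1110 bp, and 26.4% of the calcitriol list was narrower. The nearest unstimulated peak was 1220.7 kb away. The next bound region of any class lay across a gap of 1213.7 kb, and 11.2% of all regions were more isolated.

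By the distance to the nearest calcitriol peak, the genes ranked CLMN (5.8 kb), SLC37A2 (7.8 kb), FBP1 (9.9 kb), NINJ1 (14.6 kb), G0S2 (15.4 kb), ASAP2 (54.3 kb), LRP5 (275.7 kb) and ALOX5 (1956.1 kb). The TSS positions are rounded to 1 kb, so the order of NINJ1 and G0S2 is not resolved. The median was 15.0 kb, against 1254.6 kb from the centres of all tiles to their nearest calcitriol peak. The genes were chosen with earlier results of these data known, so this contrast may be built into the choice and was not tested. For the unstimulated list the ranking was SLC37A2 (8.1 kb), NINJ1 (14.4 kb), LRP5 (309.9 kb), ASAP2 (435.6 kb), FBP1 (778.7 kb), CLMN (1220.7 kb), G0S2 (1840.0 kb) and ALOX5 (1966.6 kb). For 4 genes, FBP1, G0S2, ASAP2 and CLMN, the nearest peak was thus at least 435.6 kb away before ligand and within the window after it. For SLC37A2, NINJ1, LRP5 and ALOX5 the nearest peaks of both lists lay at similar distances.

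**Figure D2:**
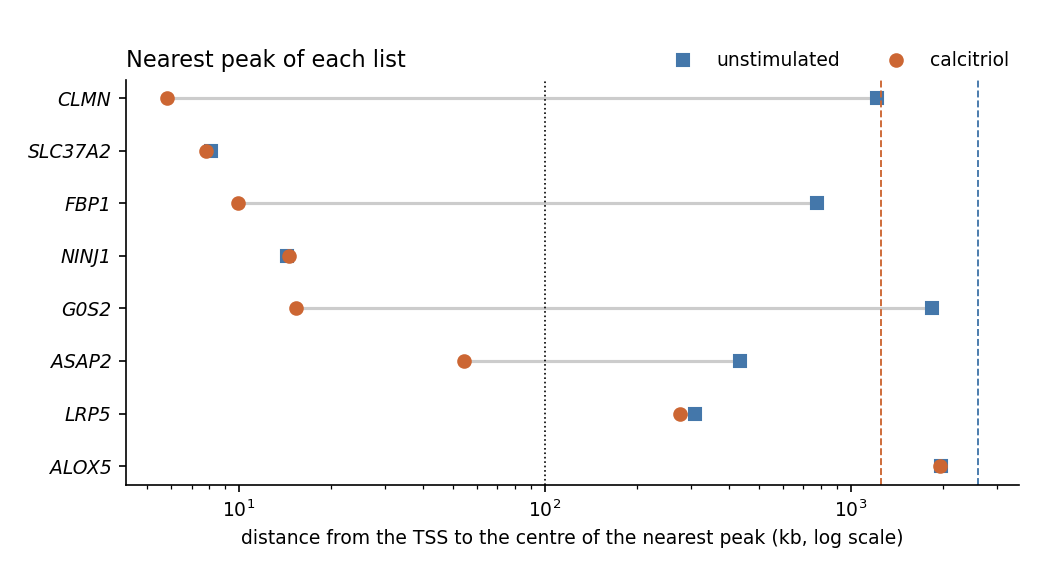
Distance in kb, on a log axis, from each TSS to the centre of the nearest unstimulated peak (square) and calcitriol peak (circle). The dotted line marks the window of 100 kb and the dashed lines the median for tile centres, 1254.6 kb for calcitriol and 2606.5 kb for unstimulated peaks; FBP1, G0S2, ASAP2 and CLMN have their symbols far apart, the other genes close together.

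The 3 sites called in both states were wider after calcitriol in each case. The width rose from 1319 to 1480 bp at SLC37A2 (161 bp more, 1.12 times), from 1279 to 1839 bp at the NINJ1 site nearer the TSS (560 bp, 1.44 times) and from 949 to 1919 bp at the other NINJ1 site (970 bp, 2.02 times). Among all 447 such pairs, 62.0% were wider after calcitriol and the median gain was 169 bp. The SLC37A2 site was near that median, and 54 pairs gained more than the NINJ1 site at 18.4 kb. Width depends on where a caller sets its edges and on depth, and peak heights are unknown, so these are differences between called intervals of 2 libraries.

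**Figure D3:**
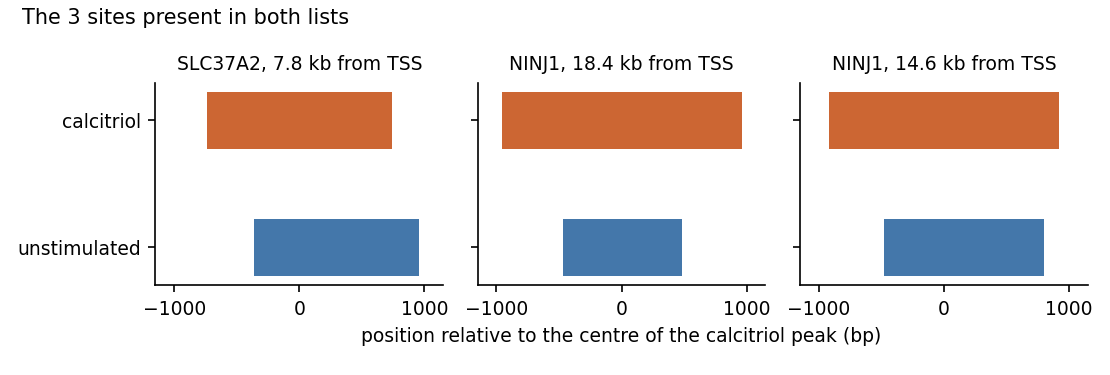
Called intervals at the 3 sites present in both lists, aligned on the centre of the calcitriol peak (x axis in bp), with calcitriol above and unstimulated below. At SLC37A2 the intervals are offset, and at both NINJ1 sites the unstimulated interval lies inside the calcitriol interval.

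In the calcitriol list 7 of the 8 peaks in the windows were wider than the list's median of 1430 bp, the CLMN peak being the exception. They ranged from 1110 to 2390 bp with a median of 1674 bp. The unstimulated peaks in the windows, from 949 to 1319 bp, were all narrower than their list's median of 1340 bp. The quartiles were 1090 and 1780 bp in the calcitriol list and 1030 and 1710 bp in the unstimulated list. Of the calcitriol peaks in the windows, the ASAP2 peak and both shared NINJ1 peaks thus stood above the upper quartile of their list, and the CLMN peak just above the lower one.

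**Figure D4:**
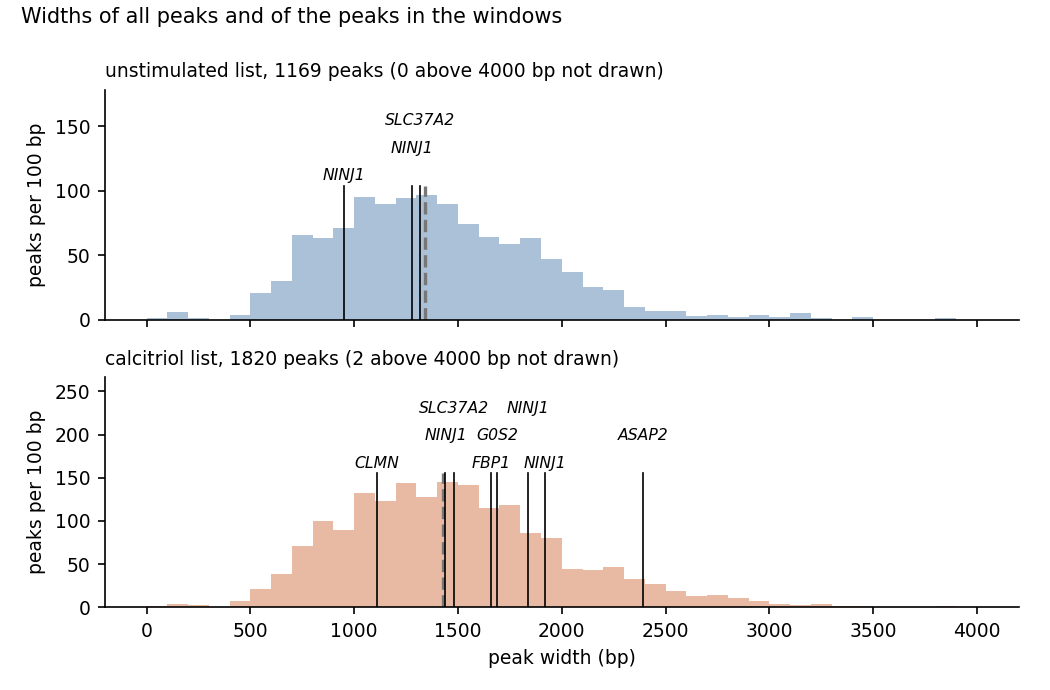
Histograms of peak width in bp for the unstimulated list (above) and the calcitriol list (below), with the peaks in the windows as solid lines named by gene and the list median as a dashed line. The window peaks lie below the median of 1340 bp in the unstimulated list, and 7 of 8 lie above the median of 1430 bp in the calcitriol list.

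The number of loci with a calcitriol peak rose with the window, in steps. Within 10 kb, 3 loci held a calcitriol peak (FBP1, SLC37A2 and CLMN) and 1 an unstimulated peak (SLC37A2), against 1.03% and 0.603% of tiles of the same size. Within 20 kb G0S2 and NINJ1 joined them, giving 5 and 2 loci, against 1.89% and 1.11% of tiles. ASAP2 entered between 50 and 100 kb, and nothing was added between 100 and 200 kb. Within 500 kb, 7 loci held a calcitriol peak and 4 an unstimulated peak, with LRP5 now included, but 27.9% and 16.7% of tiles of that size also did. ALOX5 had no peak within 1000 kb, where 46.4% of tiles of that size held a peak of either list.

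**Figure D5:**
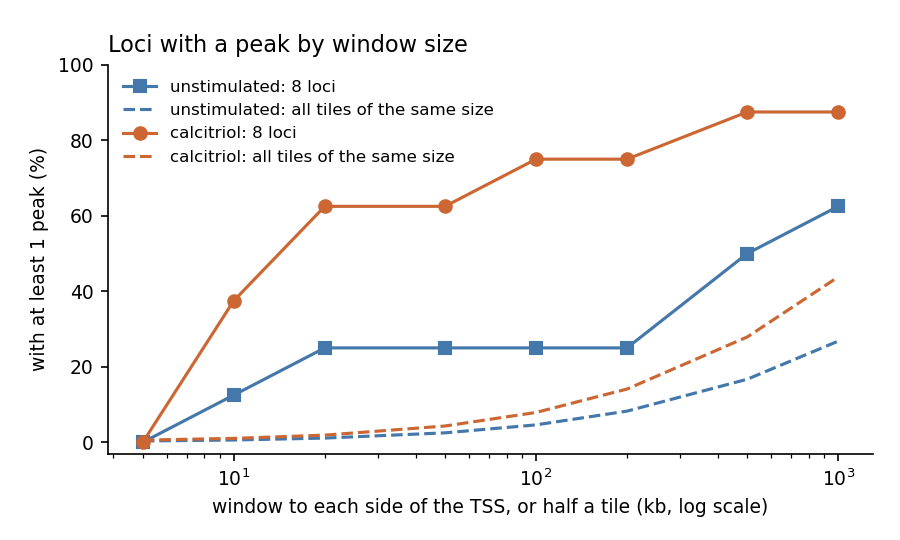
Percent of the 8 loci (solid lines) and of all tiles of the same size (dashed lines) with at least 1 peak, against the window to each side in kb on a log axis. The calcitriol line reaches 75.0% at 100 kb and the unstimulated line 25.0%, and both are at 0 at 5 kb.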

How the data were processed

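VDR ChIP-seq peak lists of THP-1 cells, 1 per condition, were analysed. Per the submitters' processing notes, the authors aligned reads to hg19 and used Bowtie. Which peak caller and threshold they applied, and how the IgG sample entered, is not given in the sources used here, and a different threshold would change which peaks exist and how wide they are. The authors deposited 3 columns per list, the chromosome, start and end of each peak, with no score or depth. The deposited edges are printed unchanged, and width is end minus start.

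Samples were grouped by the treatment label. TSS positions are those of the locus definition, to 1 kb. Peaks sharing at least 1 bp between lists were merged into regions. Distances run from the TSS to the peak centre, and gaps between regions from edge to edge. Tiles are full 200 kb segments of 23 chromosomes up to the last peak. No test was made, because each condition has 1 library and the genes and lists were chosen with earlier results of these data known. All 8 genes and every peak in their windows are named by rule, and neighbouring genes by the gene order of GRCh38.p14. Artificial peaks were also planted in the deposited lists after the peaks near the loci were removed. The planted class was recovered at 160 of 160 loci, a number that counts loci left empty on purpose. This checks the handling of intervals only. Alternatives were other window sizes, definitions of membership and sharing, joined peaks, removed rows, wider peaks and shifted TSS. Python 3.11.15, numpy 2.4.6, pandas 2.3.3 and matplotlib 3.10.9 were used.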

Additional observations from a re-analysis of the deposited data

How the results depend on the processing

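No paired analysis was possible because the lists are single libraries, and for the same reason none could be left out in turn. Of 148 alternative values, 140 stayed within 1.5 times of the reported count or within 1 kb of the reported distance. Most were distances of single genes, 16 values under 5 alternatives each. Moving the TSS by 0.5 kb could not move a distance by 1 kb, so the share kept does not measure robustness. Windows of 20 or 50 kb to each side left 3 calcitriol-only regions, since the ASAP2 peak and the distant NINJ1 peak fall outside. In the wider 50% of each list no unstimulated peak remained in the windows, so loci with an unstimulated peak, unstimulated peaks and shared regions were each 0. The 3 unstimulated peaks are narrower than their list's median. With them removed, all 7 remaining regions were counted as calcitriol-only, against 5 of 8 in the main setting. Loci with a calcitriol peak fell from 6 to 5, as the CLMN peak is narrower than its list's median. With an overlap of at least 50% of both peaks required for sharing, the NINJ1 site at 18.4 kb was split. The overlap there was 49.5% of the calcitriol peak. Its peaks were then counted apart, although the unstimulated peak lay wholly within the calcitriol peak. That left 2 shared, 6 calcitriol-only and 1 unstimulated-only regions. Distances to the nearest edge moved by over 1 kb for ASAP2 (53.1 kb) and LRP5 (274.6 kb). Depth is unknown, so how many weaker sites could be missed in either list cannot be stated.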
